A study of Mus musculus with 384 samples.

Results

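The immediate early and stress response genes described here are 32 of the 23422 genes in the deposited count table. They were listed by name, as genes known to be switched on quickly by growth factors, injury, heat or the handling of tissue, and no measured value was used as a threshold. All 32 were also found among the 22276 genes that the authors kept after filtering. By role they comprised 8 factors of the AP-1 type, 10 other induced transcription factors, 9 feedback or survival regulators and 5 heat shock chaperones.

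The study sorted single cells from adult mouse lung to compare the mesenchymal cells marked by Lgr5 with those marked by Lgr6, which encode related receptors for R-spondins. From 2 Lgr5-CreERT2;R26-Tom mice Tom+ cells were taken, a lineage label that needs tamoxifen-activated Cre and that progeny keep, and from 2 Lgr6-EGFP-CreERT2 mice GFP+ cells, a reporter read from the Lgr6 locus without recombination. Lungs were digested with collagenase and dispase, and dead cells (DAPI) and cells stained for CD31, CD45, CD11b or TER119 were gated out. Most of the study's mice were 7 to 10 weeks old, and a C57BL/6 background was stated only for the mice of lineage tracing and injury. Line, reporter, tamoxifen and sorting plate change together in this design, so their parts in a difference between the lines cannot be told apart.

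Each well was a library of its own, made by full-length SmartSeq2 with amplification by PCR and no molecular identifiers. Every interval given here covers the sampling of cells within a mouse only, not the spread between mice. The authors kept 29 and 28 cells of Lgr5 mice 1 and 2, and 50 and 75 cells of Lgr6 mice 1 and 2. By their methods, cells with more than a trace of Pecam1 (CD31) or Ptprc (CD45) mRNA were removed, so low values of these markers follow from that choice. Summed over the kept cells, the counts were 9874249 and 13198680 in the Lgr5 mice, set against 28875278 and 124650544 in the Lgr6 mice. The median cell had 263129, 272729, 332588 and 1537593 counts in the 4 mice, so that Lgr6 mouse 2 was the most deeply sequenced by far. The ribosomal precursor Rn45s took 26.7%, 25%, 32.3% and 37.5% of the counts, in the same order of mice. The mouse was the replicate, with n = 2 mice in each line.

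As a check of the labels, Lgr5 reached 711 and 403 CPM (counts scaled to a common total per mouse) in the Lgr5 mice, set against 29 and 63.7 in the Lgr6 mice. Lgr6 itself was at 30.2 and 63.9 CPM in the Lgr5 mice, compared with 46.2 and 48.4 in the Lgr6 mice, so its mRNA did not separate the lines. Acta2, the smooth muscle actin gene, was at 1023 and 521 CPM in the Lgr5 mice, compared with 4905 and 5305 in the Lgr6 mice. Cells with Acta2 at a log2(TPM + 1) of 11 or more are called Acta2-high below, TPM being a share of all transcripts that allows for their length. They numbered 1 and 0 in the Lgr5 mice, set against 27 and 38 in the Lgr6 mice, where 23 and 37 cells were lower. Between 2 and 16 cells of a mouse lay within 1 log2 unit of that threshold (2, 4, 10 and 16).

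Immediate early genes are transcribed from factors already present in the cell, so that they need no new protein before they start. Their first products include the Fos, Jun and Egr transcription factors, soon followed by proteins that shut the response down again by degrading its mRNAs or dephosphorylating its kinases. Heat shock chaperones answer to a separate factor, Hsf1, and enzymatic digestion of tissue is known to induce both groups in cells that are later sorted.

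Most members were plentiful in these cells. By mean TPM over the 4 mice, the AP-1 gene Junb came first at 2166, followed by the orphan nuclear receptor gene Nr4a1 at 2007, the small chaperone gene Hspb1 at 1750, Fos at 1610 and the NF-kB inhibitor gene Nfkbia at 1428. The lowest were Egr3 at 4.22, Hspa1b at 10.9 and Jund at 11.7. Junb was detected, with a count above 0, in 93.1% of cells in Lgr5 mouse 1 (exact Clopper-Pearson 95% interval 77.2 to 99.2), 85.7% in Lgr5 mouse 2 (67.3 to 96), 78% in Lgr6 mouse 1 (64 to 88.5) and 80% in Lgr6 mouse 2 (69.2 to 88.4). Egr3 was detected in no more than 9.33% of the cells of any mouse. All of Fos, Jun and Egr1 were detected together in 51.7%, 50%, 50% and 44% of cells, Lgr5 mice first, while 0, 1, 2 and 6 cells had none of these genes. The members together took 2.54%, 2.53%, 2.35% and 2.10% of the counts other than Rn45s, a narrow range with the Lgr5 mice given first.

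**Figure D1:**
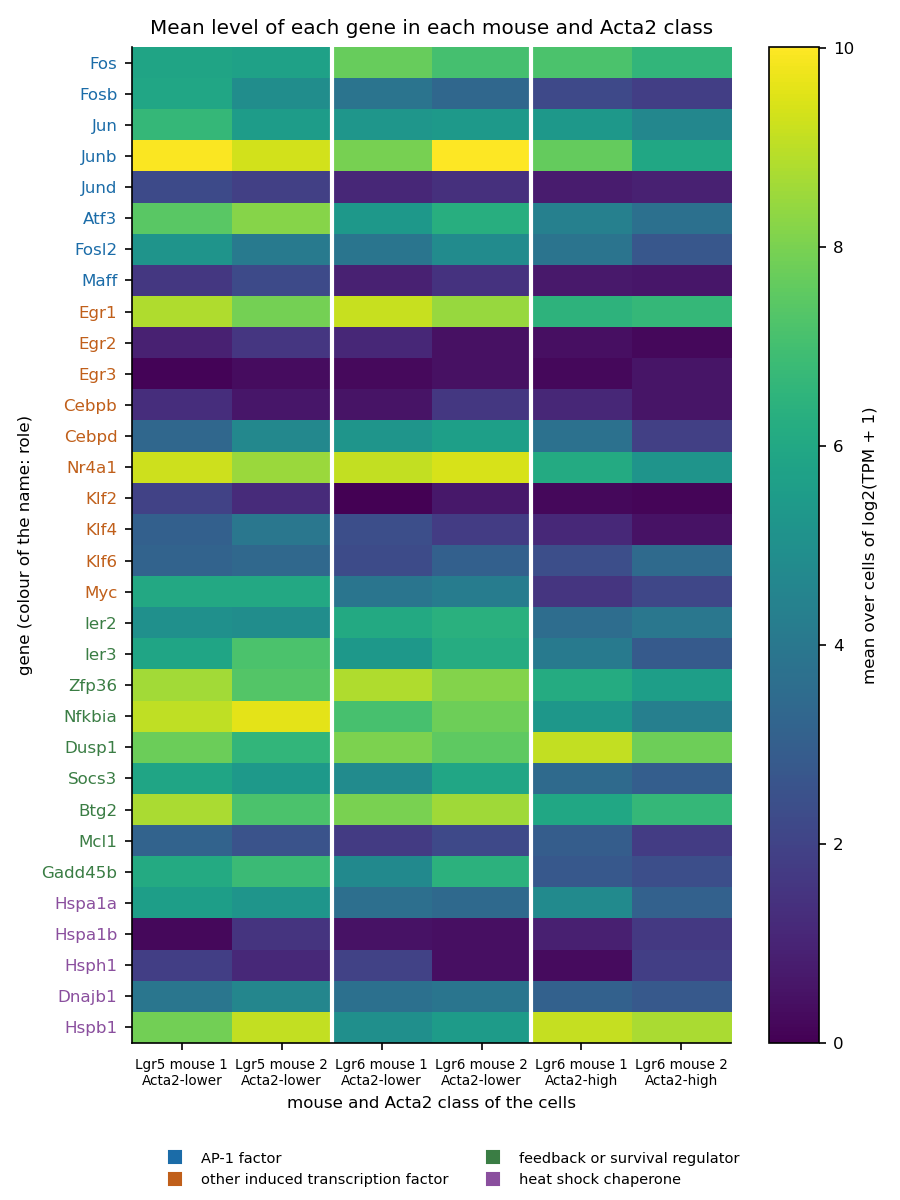
Mean over cells of log2(TPM + 1) for each of the 32 members (vertical) by mouse and Acta2 class (horizontal), with yellow for high and dark blue for low levels and gene names coloured by role. Junb, Nr4a1 and Nfkbia are among the bright genes of Acta2-lower cells, and the Acta2-high columns of the Lgr6 mice are darker than the lower ones for most genes but brighter for Hspb1.

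In the plot of mean levels by mouse and Acta2 class, most AP-1, Egr, Nr4a1 and feedback genes had less signal in the Acta2-high cells of either Lgr6 mouse than in the lower cells of the same mouse. Hspb1 and Dusp1 went the other way. The 1 Acta2-high cell of Lgr5 mouse 1 was too few for a class of its own and is not drawn.

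The lines were compared first, to see whether cells sorted by Lgr5 and by Lgr6 differed in these genes. Most members had higher CPM in the Lgr5 mice, among them Fosb, Junb, Nfkbia and Klf4, whereas Fos, Dusp1 and Cebpd had higher CPM in the Lgr6 mice. The median log2 fold change of the 32 members, Lgr5 minus Lgr6, was 0.62, beside -0.05 for all 14086 genes tested, and 24 members were above 0 and 8 below. In 18 members both Lgr5 mice lay above both Lgr6 mice, a pattern found in 18.9% of all genes tested, and in 6 members both Lgr6 mice lay above, as in 24% of all genes. No single member passed the test: edgeR called 0 of 32 members and 0 of 14086 genes (0%) at an adjusted p under 0.05. At an unadjusted p under 0.05 it gave 8 members, 6 higher in the Lgr5 mice and 2 higher in the Lgr6 mice, beside 9.31% of all genes. DESeq2 on the same sums also called 0 members, beside 4.03% of all genes, and limma on the mean over cells of log2(TPM + 1) called 7 members, beside 4.54% of all genes. Those 7 were Fosb, Junb, Atf3, Nfkbia, Klf4, Myc and Gadd45b, each higher in the Lgr5 mice.

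Among the AP-1 genes, whose products pair to bind DNA, Fosb stood at 585 and 475 CPM in Lgr5 mice 1 and 2, against 204 and 96.7 in Lgr6 mice 1 and 2. Junb, a partner that often restrains Jun, stood at 1786 and 2593 CPM in Lgr5 mice 1 and 2, against 938 and 1031 in Lgr6 mice 1 and 2. Neither gene overlapped between the lines. The log2 fold change was 1.82 (SE 0.51, adjusted p = 0.327 by edgeR) for Fosb and 1.15 (SE 0.34, adjusted p = 0.330) for Junb, each higher in 2 of 2 Lgr5 mice. Jund, the least induced of the Jun genes in most cells, had 25.5 and 14.3 CPM in the Lgr5 mice against 7.33 and 6.80, with a log2 fold change of 1.5 (SE 1.16, adjusted p = 0.769), and among Acta2-lower cells it overlapped in CPM, at 0.57, though not on the mean over cells of log2(TPM + 1). Its mRNA shares 50.1% of its 31-base words with another annotated gene, Gm11175, so the assignment of its reads is uncertain. Atf3, a factor induced by many kinds of stress, had 969 and 1145 CPM in the Lgr5 mice against 808 and 632, and Jun had 547 and 702 CPM against 502 and 536. Their log2 fold changes were 0.55 (SE 0.35) and 0.27 (SE 0.37), and both turned below 0 among Acta2-lower cells in CPM, though not in the mean over cells of log2(TPM + 1). Fosl2, a late partner of the Jun proteins, had 307 and 252 CPM against 322 and 216, and Maff, a small Maf protein that pairs with other leucine zipper factors, had 9.66 and 24.9 against 9.01 and 13.3, so both overlapped.

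Fos, the classical immediate early gene, went against most of its family. It stood at 1106 and 947 CPM in Lgr5 mice 1 and 2, against 2297 and 1697 in Lgr6 mice 1 and 2, without overlap. The log2 fold change was -0.96 (SE 0.33, adjusted p = 0.402), and leaving out any mouse or changing the scaling kept its sign. The promoter of Fos on the plus strand at chr12:85473640-85473939 is shown because the gene is at once abundant and lower in the line where Fosb and Junb were higher. The sequence is from RefSeq on the build GRCm38.p6, 250 bases before to 50 bases after the start of the gene, and the capitals mark a TATAAA match that begins 33 bases before the start.
Fos: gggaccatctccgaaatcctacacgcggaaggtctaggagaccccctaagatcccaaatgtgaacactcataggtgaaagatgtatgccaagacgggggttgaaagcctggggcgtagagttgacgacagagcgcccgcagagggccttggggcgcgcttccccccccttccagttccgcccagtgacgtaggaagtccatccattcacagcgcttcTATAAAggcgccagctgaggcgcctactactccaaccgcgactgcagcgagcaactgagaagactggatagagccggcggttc

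Of the other induced transcription factors, Klf4, a zinc finger factor of epithelial and vascular cells, stood at 94.3 and 356 CPM in Lgr5 mice 1 and 2, against 49.5 and 32.5 in Lgr6 mice 1 and 2. Klf2, its relative known from flow-exposed endothelium, had 20.9 and 22.4 CPM against 0.0715 and 4.65, the lowest of these resting on 2 counts in Lgr6 mouse 1. Egr2 had 60.5 and 104.7 CPM against 51.3 and 20.3. For all of these the Lgr5 mice were the higher ones, and the spread inside a line was wide. The log2 fold changes were 2.46 for Klf4 (SE 0.75, adjusted p = 0.364), 3.19 for Klf2 (SE 1.87, adjusted p = 0.697) and 1.21 for Egr2 (SE 0.76, adjusted p = 0.702). Among Acta2-lower cells Klf4 at 1.47 and Egr2 at 0.69 overlapped between the lines in CPM, and on the mean over cells of log2(TPM + 1) only Egr2 did. The CCAAT-binding factors had higher CPM in the Lgr6 mice. Cebpd, an acute phase factor, stood at 135.3 and 96.5 CPM in Lgr5 mice 1 and 2, against 443 and 196.5 in Lgr6 mice 1 and 2, and Cebpb had 2.96 and 1.60 CPM against 9.69 and 15.2. Their log2 fold changes were -1.46 (SE 0.56, adjusted p = 0.471) and -2.45 (SE 1.44, adjusted p = 0.697), with no overlap between the lines, although on the mean over cells of log2(TPM + 1) they were -0.13 and -0.03 and overlapped. Egr1, induced through serum response factor, stood at 1728 and 1117 CPM in Lgr5 mice 1 and 2, against 1986 and 2073 in Lgr6 mice 1 and 2. Its log2 fold change of -0.51 (SE 0.34) turned to 0.58 on the mean over cells of log2(TPM + 1), so its direction depended on the unit. Without Lgr5 mouse 1 or 2 the fold change of Egr1 was -0.87 and -0.14. Nr4a1 had 2557 and 2148 CPM against 1496 and 1562, and Myc, the growth regulator, had 422 and 646 against 366 and 215, with the Lgr5 mice above, although both turned below 0 when all single-cell wells were used, and among Acta2-lower cells they overlapped, at -0.02 for Nr4a1 and 0.10 for Myc. On the mean over cells of log2(TPM + 1) in those cells Nr4a1 was at -0.37 with overlap and Myc at 2.02 without. Klf6 had 279 and 257 CPM against 212 and 151.5, without overlap. On the mean over cells of log2(TPM + 1) over all kept cells Klf6 overlapped, with 3.23 for Lgr5 against 2.82 for Lgr6. Egr3 stayed between 0.191 and 4.21 CPM and overlapped.

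The feedback regulators shut the response down. Nfkbia, which holds NF-kB in the cytoplasm and is itself an NF-kB target, stood at 1148 and 1630 CPM in Lgr5 mice 1 and 2, against 693 and 557 in Lgr6 mice 1 and 2. Gadd45b, a regulator of stress kinases, had 269 and 463 CPM against 132.9 and 219. Both were higher in 2 of 2 Lgr5 mice, with log2 fold changes of 1.15 (SE 0.36, adjusted p = 0.380) and 1.06 (SE 0.50, adjusted p = 0.609), although among Acta2-lower cells both were at 0.38 and overlapped between the lines. On the mean over cells of log2(TPM + 1) in those cells Nfkbia was at 1.87 without overlap and Gadd45b at 0.86 with overlap. Dusp1, the phosphatase that switches off MAP kinases, stood at 842 and 587 CPM in Lgr5 mice 1 and 2, against 1747 and 935 in Lgr6 mice 1 and 2. Zfp36, which encodes the mRNA-degrading protein tristetraprolin, had 902 and 441 CPM against 862 and 413. The Lgr6 mice were thus above for Dusp1 in CPM, and for Zfp36 each line had 1 high and 1 low mouse. On the mean over cells of log2(TPM + 1) Dusp1 overlapped between the lines. Socs3, an inhibitor of cytokine signalling, had 667 and 635 CPM against 468 and 321, and Ier3, a short-lived survival protein, had 247 and 434 against 377 and 274. Ier2, a nuclear protein, had 149.1 and 199.1 CPM against 153.5 and 249. Socs3 did not overlap between the lines, though it turned below 0 among Acta2-lower cells in CPM only. Ier2 and Ier3 did overlap in CPM. On the mean over cells of log2(TPM + 1) Ier3 lay above in both Lgr5 mice, with 6.59 for Lgr5 against 4.58 for Lgr6. The antiproliferative gene Btg2, at 1439 and 1542 CPM against 1302 and 1279, and the Bcl2 relative Mcl1, at 86.1 and 79.7 against 56.5 and 47.7, had the Lgr5 mice above, although Btg2 turned below 0 among Acta2-lower cells in both units and with all single-cell wells, and overlapped on the mean over cells of log2(TPM + 1) over all kept cells.

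Promoters of 3 feedback genes are shown because each gene ends the response by another route and holds the classical motif of a different input. All lie on the minus strand of GRCm38.p6 and are written 5′ to 3′ in the direction of the gene: Zfp36 at chr7:28379179-28379478, Nfkbia at chr12:55492598-55492897 and Dusp1 at chr17:26508423-26508722. The capitals mark a CArG box, the motif of serum response factor, 58 bases before the start of Zfp36, an NF-kB consensus 29 bases before that of Nfkbia, and a cAMP response element, TGACGTCA, further upstream in Dusp1.
Zfp36: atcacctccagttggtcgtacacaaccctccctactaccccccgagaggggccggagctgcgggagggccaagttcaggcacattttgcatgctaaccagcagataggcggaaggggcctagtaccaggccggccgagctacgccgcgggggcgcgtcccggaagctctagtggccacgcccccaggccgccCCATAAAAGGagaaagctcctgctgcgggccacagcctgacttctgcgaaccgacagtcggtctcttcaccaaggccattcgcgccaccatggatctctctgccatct
Nfkbia: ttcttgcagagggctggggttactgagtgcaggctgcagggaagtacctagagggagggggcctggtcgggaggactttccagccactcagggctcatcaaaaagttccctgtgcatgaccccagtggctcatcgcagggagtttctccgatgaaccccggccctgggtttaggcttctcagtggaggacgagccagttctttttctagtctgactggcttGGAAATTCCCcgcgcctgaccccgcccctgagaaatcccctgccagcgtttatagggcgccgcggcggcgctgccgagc
Dusp1: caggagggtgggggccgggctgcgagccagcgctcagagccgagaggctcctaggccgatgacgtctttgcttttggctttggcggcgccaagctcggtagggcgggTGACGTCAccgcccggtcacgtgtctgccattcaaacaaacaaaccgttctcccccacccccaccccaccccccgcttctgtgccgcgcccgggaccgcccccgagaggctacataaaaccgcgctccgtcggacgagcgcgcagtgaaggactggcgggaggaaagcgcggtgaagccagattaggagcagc

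Of the 5 heat shock chaperones, which refold damaged proteins, 4 had a log2 fold change above 0 between the lines, with a median of 1.02. Over all members 24 of 32 were above 0, with a median of 0.62. Hspb1, a small chaperone that also binds actin filaments, stood at 750 and 945 CPM in Lgr5 mice 1 and 2, against 467 and 371 in Lgr6 mice 1 and 2. Hspa1a, an inducible Hsp70 gene, had 314 and 816 CPM against 257 and 155.2. For both, the Lgr5 mice were above, with log2 fold changes of 1.02 (SE 0.38, adjusted p = 0.451) and 1.45 (SE 0.58, adjusted p = 0.498). With all single-cell wells Hspb1 was at 0.04, and among Acta2-lower cells Hspa1a overlapped in CPM, at 1.01, but not on the mean over cells of log2(TPM + 1), at 1.88. Hspa1b, the neighbouring Hsp70 gene, had 2.30 and 62.3 CPM against 7.37 and 15.5, so that 1 Lgr5 mouse was lowest and the other highest. Dnajb1, a cochaperone of Hsp70, had 105.1 and 317 CPM against 95.3 and 181.5 and overlapped. On the mean over cells of log2(TPM + 1) the Lgr5 mice lay above for Dnajb1, by 0.94. Hsph1, which exchanges nucleotide on Hsp70, had 44 and 27.4 CPM against 92.9 and 44.3. Its log2 fold change of -0.94 (SE 0.74) turned to 0.31 with equal totals per cell and to 0.47 on the mean over cells of log2(TPM + 1). The counts of 3 of these genes are uncertain, since 31-base words are shared between mRNAs: 63.8% of those of Hspa1a occur in Hspa1b, 67.6% of those of Hspa1b in Hspa1a, and 52.3% of those of Hspb1 in the pseudogene Hsp25-ps1.

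The promoters of these 3 genes are shown, in RefSeq sequence on GRCm38.p6, to let the near-identity of the Hsp70 pair be seen: Hspb1 on the plus strand at chr5:135887669-135887968, Hspa1a on the minus strand at chr17:34972107-34972406 and Hspa1b on the minus strand at chr17:34959189-34959488. The capitals mark pairs of heat shock units, GAANNTTC, which occur at a pair of places in Hspb1 and once each, at the same distance from the start, in Hspa1a and Hspa1b. The promoters of Hspa1a and Hspa1b were identical at 296 of 300 bases.
Hspb1: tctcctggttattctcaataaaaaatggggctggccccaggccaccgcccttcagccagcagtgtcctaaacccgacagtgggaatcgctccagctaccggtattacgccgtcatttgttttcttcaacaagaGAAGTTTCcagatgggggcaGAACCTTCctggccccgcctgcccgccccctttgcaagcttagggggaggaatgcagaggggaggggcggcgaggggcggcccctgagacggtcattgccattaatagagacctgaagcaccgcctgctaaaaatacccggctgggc
Hspa1a: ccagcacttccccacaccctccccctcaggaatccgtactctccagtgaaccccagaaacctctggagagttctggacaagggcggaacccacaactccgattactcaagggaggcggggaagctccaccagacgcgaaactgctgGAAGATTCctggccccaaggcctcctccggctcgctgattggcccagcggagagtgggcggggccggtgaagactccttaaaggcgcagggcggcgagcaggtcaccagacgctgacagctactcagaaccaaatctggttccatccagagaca
Hspa1b: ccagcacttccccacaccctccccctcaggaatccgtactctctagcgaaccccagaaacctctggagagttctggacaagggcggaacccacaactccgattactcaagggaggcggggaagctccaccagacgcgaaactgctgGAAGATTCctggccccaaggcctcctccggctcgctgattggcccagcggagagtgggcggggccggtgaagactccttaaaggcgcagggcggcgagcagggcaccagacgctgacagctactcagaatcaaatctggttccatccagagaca

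Promoters were found for 27 of the 32 members and searched on both strands, with all 32851 RefSeq promoters of the same length beside them. GAANNTTC occurred in 6 members, namely Jun, Fosl2, Hspa1a, Hspa1b, Hsph1 and Hspb1, and in 7.86% of all promoters. The NF-kB consensus occurred in 7 members, Fos, Fosb, Fosl2, Maff, Ier3, Nfkbia and Nr4a1, and in 4.51% of all promoters. TATAAA occurred in 5 members and 13.6% of all promoters, TGACGTCA in 3 and 1.79%, and the CArG box in 2 and 1.63%. The motifs marked above overlapped no other of these motifs, and a match describes letters in a window, not a bound site.

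The unit mattered for how clearly the lines stood apart. On the mean over cells of log2(TPM + 1), which weighs every cell alike, the Lgr5 mice lay above both Lgr6 mice in 21 of 32 members (65.6%), the Lgr6 mice above in 1, Fos, and 10 overlapped. Over 12900 genes detected in at least 10% of the cells of a mouse, these shares were 33.1% and 18.7%. Nfkbia averaged 9.23 ± 0.51 (SD, n = 2 mice) in cells of the Lgr5 line, against 6.08 ± 0.08 for Lgr6, and Myc 5.95 ± 0.13 against 2.88 ± 0.37. Atf3 averaged 7.88 ± 0.46 against 4.89 ± 0.12, and Fosb 5.39 ± 0.66 against 2.78 ± 0.27. These are the members with the largest differences in this unit, so they do not stand for the rest. In each, the difference between the lines was several times the SD of the 2 mouse means. Other members differed less, such as Zfp36 at 7.94 ± 0.83 against 7.13 ± 0.37, and Btg2 at 7.79 ± 0.89 against 7.26 ± 0.51. Fos averaged 5.79 ± 0.08 for Lgr5 against 7.12 ± 0.41 for Lgr6, with the order of the lines turned round.

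The lines differ in how many Acta2-high cells they hold, so the comparison was repeated with Acta2-lower cells only. There, in summed counts, the median log2 fold change of the 31 members tested was -0.02, beside -0.00 for all 12958 genes, with 15 members above 0 and 16 below. The Lgr5 mice lay above both Lgr6 mice in 6 members, beside 19% of all genes, and the Lgr6 mice above in 8, beside 18.7%. edgeR again called 0 members, beside 0% of all genes, with 5 members at an unadjusted p under 0.05, beside 7.53% of all genes, and Egr3 was too low to be tested. Of the 14 members without overlap in these cells, 10 had the same side without overlap in CPM over all kept cells, namely Fosb, Junb, Hspb1, Klf2, Klf6 and Mcl1 with the Lgr5 mice above and Fos, Egr1, Dusp1 and Cebpd with the Lgr6 mice above. This holds for CPM: on the mean over cells of log2(TPM + 1) Junb, Egr1 and Dusp1 overlapped in these cells. Over all kept cells in that unit Klf6, Dusp1 and Cebpd overlapped, and Egr1 had the Lgr5 mice above. Nearly the same Lgr5 cells enter both comparisons. The share of all genes with the same side in both was not computed, so nothing is concluded from the count of 10. The log2 fold change of Fosb was 1.11 (SE 0.58) and that of Junb 0.63 (SE 0.39). Hspb1 stood at 605 and 896 CPM in Lgr5 mice 1 and 2, against 83 and 246 in Lgr6 mice 1 and 2, a log2 fold change of 2.19 (SE 0.64, adjusted p = 0.328). Fos had 1173 and 898 CPM against 3421 and 1845, at -1.35 (SE 0.43, adjusted p = 0.340), Dusp1 815 and 557 CPM against 2535 and 1077, and Cebpd 144.3 and 91.5 CPM against 548 and 367. In CPM, Jun lay above in the Lgr5 mice over all kept cells and in the Lgr6 mice here, but on the mean over cells of log2(TPM + 1) it stayed above in the Lgr5 mice, at 6.67 and 5.55 against 5.26 and 5.40. Ier2, Ier3 and Fosl2 overlapped in CPM over all kept cells and lay above in the Lgr6 mice here, which held for Ier2 alone in the other unit.

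The unit thus changed the result among Acta2-lower cells. With limma on the mean over cells of log2(TPM + 1), chosen after seeing the data, the median difference of the 31 members was 0.61, beside 0.09 for 12957 genes, with 22 members above 0 and 9 below. Both Lgr5 mice lay above in 14 members (45.2%), beside 29.7% of all genes, and both Lgr6 mice above in 3, Fos, Ier2 and Cebpd, beside 17.4%. It called 1 member, Hspb1, beside 2.02% of all genes. Hspb1 averaged 7.89 and 9.09 in the Lgr5 mice, set against 5.0 and 5.50 in the Lgr6 mice, Atf3 7.43 and 8.21 against 5.33 and 6.29, and Myc 6.06 and 6.04 against 3.88 and 4.19.

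**Figure D2:**
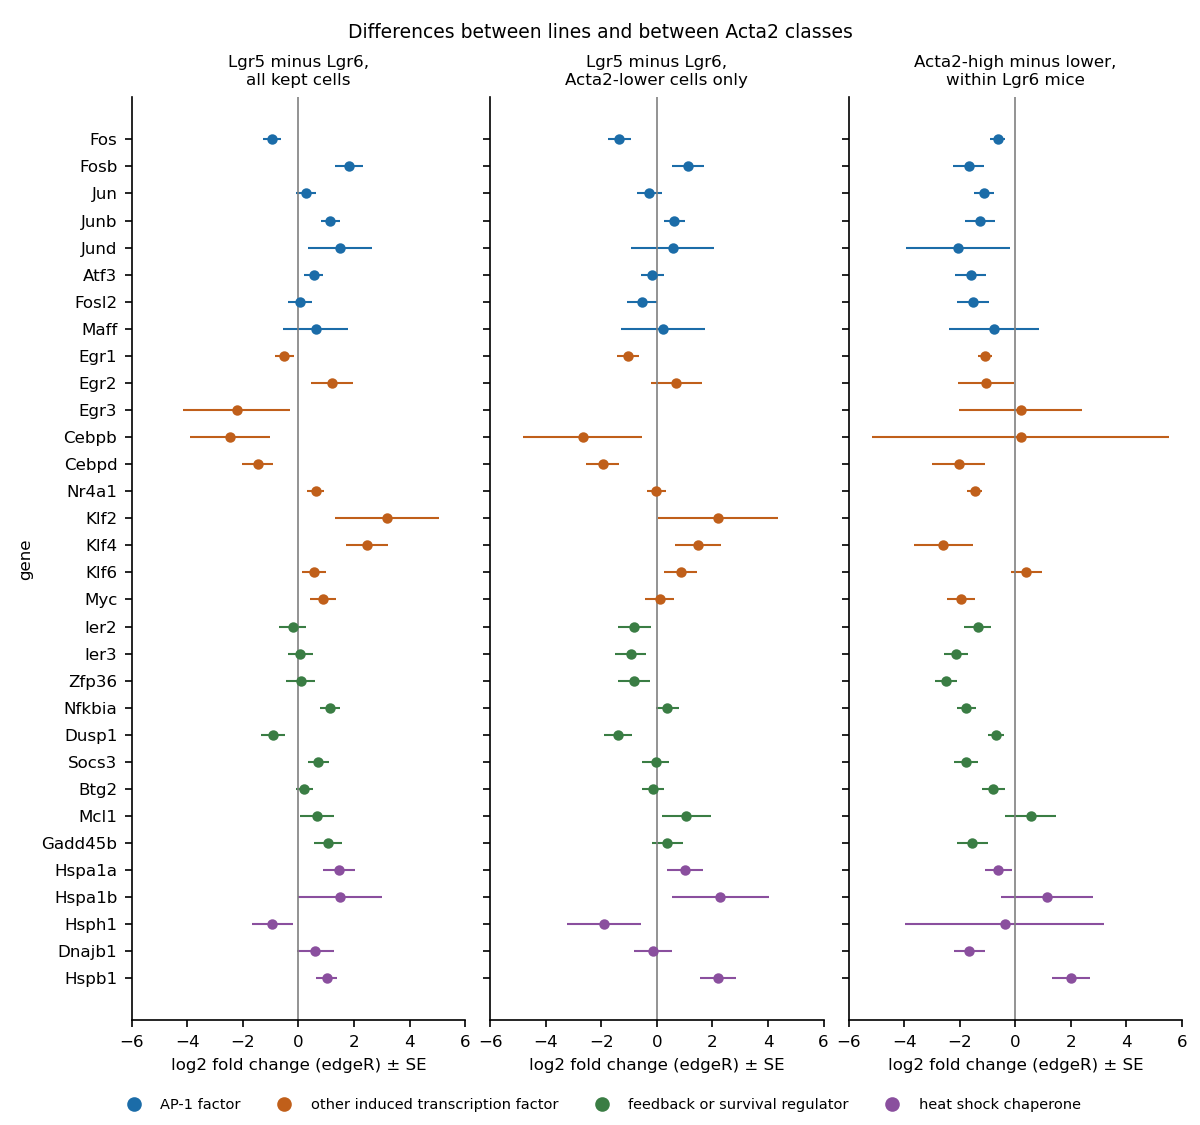
Log2 fold change of each member, with its standard error as a bar, between the lines over all kept cells, between the lines over Acta2-lower cells only, and between Acta2-high and lower cells of the Lgr6 mice; a line marks 0. Most members lie right of 0 in the first comparison, around 0 in the second (median -0.02) and left of 0 in the last (median -1.28).

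The plot of the 3 comparisons shows 24 of 32 members on the positive side between the lines, scattered around 0 once only Acta2-lower cells were used, and mostly on the negative side between the Acta2 classes. The comparisons share cells, so they are set side by side with each one's own values and no relation between them was tested.

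Within the Lgr6 mice, Acta2-high cells had lower CPM of most members than the other cells of the same mouse. Hspb1 was among the exceptions, with higher CPM in the Acta2-high cells. The members took 1.84% of the counts other than Rn45s in the Acta2-high cells of mouse 1 and 3.10% in its lower cells, and 1.34% against 2.84% in mouse 2. Of 31 members tested, with Klf2 too low, 25 had a log2 fold change below 0, with a median of -1.28 beside 0.02 over all 13529 genes. In both mice 24 members were lower in the Acta2-high cells, as were 27.7% of all genes, and 3 were higher, Hspb1, Hspa1b and Mcl1, as were 27.5% of all genes. edgeR with the mouse as a block called 0 of the 31 members, beside 4 of all genes (0.0296%), and 15 members had an unadjusted p under 0.05, 14 lower and 1 higher, beside 7.68% of all genes. DESeq2 called 2 members, Ier3 and Zfp36, beside 6.82% of all genes, and limma on the mean over cells of log2(TPM + 1) called 13, of which 12 were lower, beside 5.10% of all genes.

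With 2 mice and a block, 1 residual degree of freedom was left. The 4 genes that edgeR called were Acta2, which defined the classes and is no finding, and the surfactant genes Sftpa1, Sftpc and Sftpd, which mark alveolar type II epithelium and were nearly absent from the Acta2-high cells. Sftpc had 0.217 and 0.588 CPM in the Acta2-high cells of the mice and 3195 and 21187 CPM in the lower cells. The size of the difference depended on the Acta2 threshold. At a threshold of 10 in the same Lgr6 mice, chosen after seeing the data, 31 and 47 cells were Acta2-high, and the median of the members was -0.33, beside 0.14 over all genes, with 20 of 32 below 0. There 13 members were lower and 6 higher in both mice, and 54.1% of all genes moved one way in both, beside 55.2% at the threshold of 11.

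All 8 AP-1 genes had a log2 fold change below 0, with a median of -1.40, although Fos turned to 0.22 when each cell was given the same total, and Atf3 and Fosl2 turned above 0 at an Acta2 threshold of 10, with or without the Lgr5 mice. Jun had 352 CPM in the Acta2-high cells and 702 in the lower cells of mouse 1, and 315 against 748 in mouse 2. Fosb had 122.7 against 319 CPM in mouse 1 and 39.1 against 153.8 in mouse 2. Junb had 812 against 1047 CPM in mouse 1 and 370 against 1691 in mouse 2. The log2 fold changes were -1.12 (SE 0.36) for Jun, -1.68 (SE 0.56) for Fosb and -1.28 (SE 0.53) for Junb, with adjusted p = 0.602, 0.602 and 0.710, although Fosb turned to 0.03 at a threshold of 10 in the Lgr6 mice. With equal totals per cell Jun was at -0.20, and its mean TPM per cell was higher in the Acta2-high cells of mouse 1, at 430 against 242, and lower in mouse 2, at 278 against 502. Junb likewise had a mean TPM of 1694 against 1581 in mouse 1 and 886 against 2766 in mouse 2, so for both genes the order in mouse 1 depended on how cells were weighed. Atf3 had 633 against 1016 CPM and 186.9 against 1081, and Fosl2 244 against 417 and 74.2 against 357, again with the larger gap in mouse 2. Their log2 fold changes were -1.61 (SE 0.56) and -1.52 (SE 0.58). Jund was low throughout, at 2.12 against 15.4 CPM and 3.91 against 9.55, with -2.07 (SE 1.86). Fos had 1634 against 3170 CPM in mouse 1 and 1474 against 1846 in mouse 2. Its mean TPM per cell was 2763 against 1877 in mouse 1 and 1946 against 1827 in mouse 2, so the order of the classes depended on how cells were weighed.

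Among the other induced factors 6 of 9 tested had lower CPM in the Acta2-high cells of both mice, with a median log2 fold change of -1.09. Nr4a1 had 951 against 2258 CPM in mouse 1 and 735 against 2374 in mouse 2, and it was detected in 70.4% against 91.3% and in 63.2% against 91.9% of the cells. Egr1 had 1231 against 3053 CPM and 1447 against 2639. Both genes had their gap in each mouse in CPM, with log2 fold changes of -1.47 (SE 0.28, adjusted p = 0.527) and -1.09 (SE 0.26, adjusted p = 0.602). In mean TPM per cell the gap in mouse 1 was smaller, at 1725 against 2148 for Nr4a1 and 1453 against 1594 for Egr1. In mouse 2 these values were 714 against 2797 and 1272 against 2182. Egr1 was at -0.52 with equal totals per cell. At an Acta2 threshold of 10 Nr4a1 turned to 0.08 with the Lgr5 mice added. In the Lgr6 mice alone Nr4a1 stood at -0.32 there and Egr1 at -0.33. Klf4 had 24.7 against 86.2 CPM and 5.71 against 59.9, and Myc 217 against 578 and 64.3 against 366, with -2.60 (SE 1.07) and -1.96 (SE 0.51). Cebpd had 376 against 507 CPM in mouse 1 and 29.1 against 367 in mouse 2, and Egr2 38.4 against 67.6 and 11.7 against 28.6, with -2.04 (SE 0.96) and -1.05 (SE 1.01), the former turning to 0.21 at that threshold in the Lgr6 mice alone and the latter to 0.10 with the Lgr5 mice added. Cebpd differed little in mouse 1 and mostly in mouse 2. Egr2 was detected in only 2 Acta2-high and 4 lower cells of mouse 1. Its mean TPM per cell there was 48 against 17.6, the reverse of its CPM order. Cebpb, Egr3 and Klf6 went opposite ways in the mice, Cebpb by 4.69 in mouse 1 and -4.15 in mouse 2 on the log2 scale. Klf2 had 2 and 6 counts in the Acta2-high cells and 0 and 556 in the lower cells, so nearly all of its counts came from the lower cells of mouse 2.

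The feedback and survival regulators had the lowest median of the role groups, -1.56, with 8 of 9 lower in both mice. Zfp36, whose promoter with its CArG box is printed above, had 380 CPM in the Acta2-high cells and 1589 in the lower cells of mouse 1, and 96 against 734 in mouse 2. Ier3 had 141.9 against 735 CPM and 116.4 against 431, and Nfkbia 380 against 1151 and 230 against 882. In CPM the Acta2-high cells of each mouse had less of these 3 mRNAs, by at least 1.60 log2 units. The log2 fold changes were -2.50 (SE 0.40, adjusted p = 0.356) for Zfp36, -2.13 (SE 0.43, adjusted p = 0.602) for Ier3 and -1.77 (SE 0.35, adjusted p = 0.593) for Nfkbia. Over the alternatives the smallest in size were -0.61, -0.31 and -0.46, in the same order. In mean TPM per cell the gaps in mouse 1 were smaller, at 752 against 1465, 487 against 1071 and 548 against 1438. Socs3 had 282 against 734 CPM and 117.6 against 524, and Gadd45b 60 against 242 and 137.01 against 296, with -1.77 (SE 0.44) and -1.56 (SE 0.56), although Socs3 turned to 0.10 at a threshold of 10 in the Lgr6 mice. Ier2 had 88.7 against 247 CPM and 145.97 against 346, with -1.36 (SE 0.49). These genes also had the same direction in both mice. Dusp1 and Btg2 had log2 fold changes of -0.69 (SE 0.28) and -0.80 (SE 0.41), and Dusp1 turned to 0.67 on the mean over cells of log2(TPM + 1). Mcl1 had 66.8 against 32.7 CPM and 47.6 against 45.2, and was the 1 gene of this group that was higher, though not at an Acta2 threshold of 10 with the Lgr5 mice added.

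The chaperones were split, with 3 of 5 below 0 and a median of -0.39. Hspb1 had 664 CPM in the Acta2-high cells and 76.9 in the lower cells of mouse 1, and 466 against 246 in mouse 2. It was detected in 85.2% against 52.2% of the cells in mouse 1 and in 84.2% against 56.8% in mouse 2. In both mice more Acta2-high cells carried it, and the log2 fold change was 2.01 (SE 0.69, adjusted p = 0.602). Dnajb1 had 50.7 against 160.6 CPM and 87 against 274, with -1.66 (SE 0.56). In CPM this cochaperone was thus lower, like most of the transcription factors and unlike Hspb1. In mean TPM per cell the gap of Dnajb1 in mouse 1 was smaller, at 107.4 against 128.03, and mouse 2 had 91.7 against 315. It was detected in 51.9% against 60.9% of the cells in mouse 1 and in 65.8% against 67.6% in mouse 2. Hspa1b had 7.93 against 5.57 CPM and 22.9 against 6.69, at 1.1 (SE 1.65), and Hspa1a had 209 against 310 and 117.6 against 187.5. The near-identical Hsp70 genes thus lay on opposite sides of 0, with a large error for Hspa1b, and each changed side at an Acta2 threshold of 10 with the Lgr5 mice added, Hspa1a also without them and, at the threshold of 11, on the mean over cells of log2(TPM + 1), at 0.41. Hsph1 had 11 against 222 CPM in mouse 1 and 76.9 against 6.51 in mouse 2, opposite ways in the mice.

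Markers of other cells also moved with the classes. The 8 airway smooth muscle markers, all present, summed to 34151 and 40335 CPM of the counts other than Rn45s in the Acta2-high cells and to 1587 and 2702 in the lower cells, with Acta2 the most abundant. The 7 epithelial markers summed to 10.2 and 3.56 CPM in the Acta2-high cells, where Epcam was at 0, and to 4616 and 33853 in the lower cells, where Sftpc made up 4386 and 31951. The 7 alveolar fibroblast markers summed to 251 and 98.4 CPM against 526 and 1363, with Npnt or Pdgfra the most abundant and Wnt2 and Tcf21 at 0 in the Acta2-high cells. The 5 immune markers summed to 10.8 and 24.8 CPM against 2229 and 10384, with Lyz2, which type II cells also express, the most abundant and Ptprc, on which cells had been filtered, at 0 in the Acta2-high cells. The 5 endothelial markers summed to 0 and 0 CPM against 272 and 9.03, nearly all Kdr, and the 4 erythroid markers to 0 and 3.69 against 0.382 and 3.22. The 6 mesenchymal markers, all present with Col3a1 the most abundant, went opposite ways in the mice, at 6829 against 16276 CPM in mouse 1 and 8985 against 6700 in mouse 2. Without the cells with Epcam or Sftpc at a log2(TPM + 1) of 5 or more, the median of the members was -1.31, beside 0.16 for all genes. The part of the other markers in the result was not tested.

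Between the lines, the epithelial markers summed to 65633 and 37834 CPM in the Lgr5 mice, compared with 1859 and 17125 in the Lgr6 mice, with Sftpc the most abundant at 64390, 36736, 1761 and 16161. Cells with Epcam or Sftpc at that level numbered 10, 8, 6 and 6, and without them the median of the members between the lines was 0.78. The 4 erythroid markers in the files summed to 427 and 564 CPM in the Lgr5 mice, mostly Hbb-bh1, and to 0.153 and 3.45 in the Lgr6 mice, and their part in the difference between the lines was not tested. The 5 endothelial markers summed to 3.59, 120.5, 109.1 and 4.57 CPM, with Kdr or Egfl7 the most abundant and Pecam1, on which cells had been filtered, at 0 in every mouse, and the 5 immune markers to 6219, 9486, 901 and 5264, nearly all Lyz2. The 6 mesenchymal markers were present in every mouse, at 4853 and 7061 CPM in the Lgr5 mice, compared with 10621 and 7829 in the Lgr6 mice, with Col3a1 the most abundant. The 8 airway smooth muscle markers summed to 7322, 1709, 21078 and 21300 CPM. The 7 alveolar fibroblast markers summed to 284, 215, 361 and 738 CPM, with Npnt the most abundant and Wnt2 at 0 in Lgr5 mouse 1.

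A score per cell, the mean of log2(TPM + 1) over the 32 members, showed how widely single cells differed. In Lgr5 mouse 1 the score ran from 1.43 to 7.73 with a median of 5.45, and in Lgr5 mouse 2 from 1.1 to 8.17 with a median of 5.24. In Lgr6 mouse 1 it ran from 0.72 to 7.59 with a median of 3.41, and in Lgr6 mouse 2 from 0.83 to 7.63 with a median of 4.22. Every mouse thus held cells near the bottom and near the top of the scale, and the medians of the Lgr5 mice lay above those of the Lgr6 mice. The median cell had 21 and 21 members detected in the Lgr5 mice, set against 14.5 and 16 in the Lgr6 mice, and 19, 20, 13 and 15 when each cell was thinned to 99000 reads. Those reads include Rn45s, and 1, 3, 13 and 2 cells were too shallow to thin. With Rn45s left out first and each cell thinned to 60000 of the other reads, chosen after seeing the data, the numbers were 20, 19.5, 14 and 15, with 2, 4, 11 and 1 cells too shallow.

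Within the Lgr6 mice, the median score was 2.98 in the Acta2-high cells and 4.70 in the lower cells of mouse 1, and 2.69 against 4.88 in mouse 2. Single cells of the classes overlapped over almost the whole range, at 0.72 to 7.35 against 0.83 to 7.59 in mouse 1 and 0.83 to 6.59 against 0.86 to 7.63 in mouse 2. The upper quartile of the Acta2-high cells, 4.72 in mouse 1 and 4.78 in mouse 2, lay close to the median of the lower cells. In the Acta2-lower cells of the Lgr5 mice the median score was 5.47 and 5.24. Over the 5 chaperones alone the medians were 3.90 and 3.82 in the Acta2-high cells against 2.92 and 2.23 in the lower cells, with Hspb1 averaging 9.13 and 8.75 against 5.0 and 5.50, while Dnajb1 was lower in both mice, at 3.09 and 2.80 against 3.71 and 3.89. Without the chaperones the medians were 3.16 and 2.72 in the Acta2-high cells against 5.13 and 5.65 in the lower cells. The score had almost no relation to the number of genes detected in a cell, with a Spearman correlation of -0.00, -0.08, 0.05 and 0.06 over the 29, 28, 50 and 75 cells of the mice. With Acta2 it was -0.08, 0.51, -0.15 and -0.26, in the same order.

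**Figure D3:**
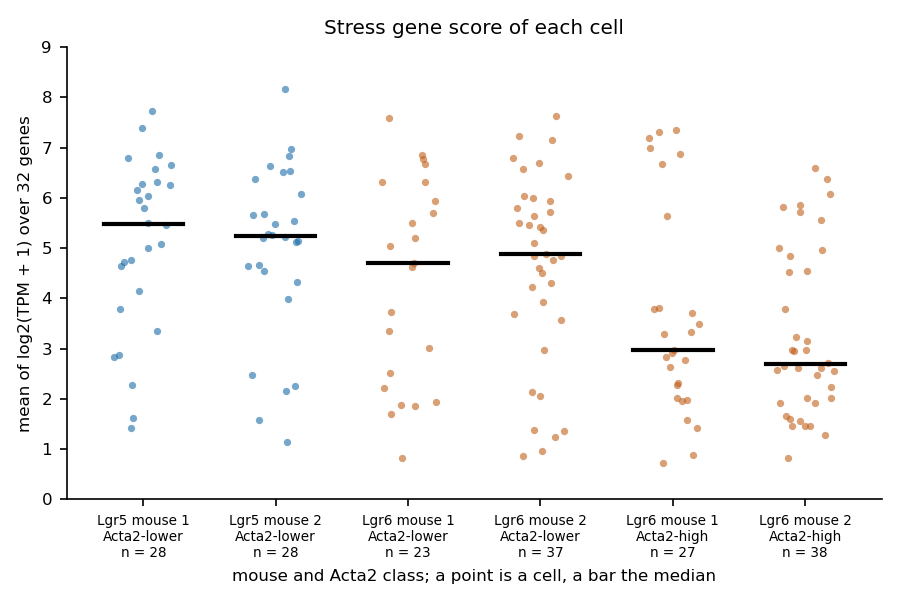
Mean log2(TPM + 1) over the 32 members in each kept cell (points) by mouse and Acta2 class, with the median as a bar. Cells spread from about 1 to about 8 in every mouse, and the Acta2-high cells of the Lgr6 mice (right) have medians of 2.98 and 2.69, below those of the lower cells at 4.70 and 4.88.

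The plot of scores per cell shows this spread, with low and high cells in every group and a greater number of low-scoring cells among the Acta2-high ones.

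Across the cells of a mouse most pairs of members had a correlation above 0. Over pairs of members detected in at least 10% of the cells, the median Spearman correlation of log2(TPM + 1) was 0.183 and 0.178 in the Lgr5 mice (29 and 28 cells) and 0.276 and 0.223 in the Lgr6 mice (50 and 75 cells). Over all pairs of genes that reached the same floor of 10% it was 0.019, 0.025, 0.011 and 0.011. How often genes were detected above that floor was not matched between the members and all genes. The correlations describe cells that share a mouse, a plate and a dissociation, and after a linear fit on the number of genes and the depth of the cell the medians of the members were 0.170, 0.165, 0.265 and 0.203. The share of all gene pairs above the median of the members was 21.5%, 23.1%, 4.52% and 5.26%, Lgr5 mice first, or 22.6%, 22.6%, 10.2% and 16.2% after that fit. Of the 378 pairs among the 28 members that reached the floor in all 4 mice, 223 (59%) were above 0 in every mouse. Of these 378 pairs, 342 had a mean above 0. Among the 7479 genes that reached the floor in all 4 mice, again not matched for detection, 9.13% of the pairs were above 0 in every mouse. Among Acta2-lower cells alone the medians were 0.183, 0.178, 0.30 and 0.209. Among Acta2-high cells alone, added after seeing the data, they were 0.339 and 0.163 in the Lgr6 mice.

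The strongest pair was Junb with Zfp36, at 0.63 and 0.71 in the Lgr5 mice, set against 0.68 and 0.81 in the Lgr6 mice, a mean of 0.71. Next came Zfp36 with Btg2 (mean 0.66), Fosb with Atf3 (0.65), Junb with Nfkbia (0.64) and Nfkbia with Nr4a1 (0.64). Fos had a mean of 0.60 with Fosb, 0.58 with Jun, 0.55 with Egr1 and 0.39 with Junb. That order did not hold in every mouse, since Fos with Junb was at 0.25 and 0.08 in the Lgr5 mice but at 0.72 and 0.51 in the Lgr6 mice, and in Lgr6 mouse 1 Fosb (0.68), Egr1 (0.67) and Jun (0.54) came below it. At the other end, Cebpb with Klf6 had a mean of -0.19, Ier2 with Hsph1 -0.11 and Jun with Cebpb -0.10. By role, the median of the mean correlations was 0.33 among feedback regulators, 0.32 among AP-1 genes and 0.30 between feedback regulators and other induced factors. It was 0.15 among the chaperones, and 0.11 to 0.17 between chaperones and the other roles. Against the mean of the other members, Fosb and Zfp36 had the highest mean correlation, 0.72, and Hsph1, Cebpb and Klf6 the lowest, 0.04, 0.07 and 0.11.

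**Figure D4:**
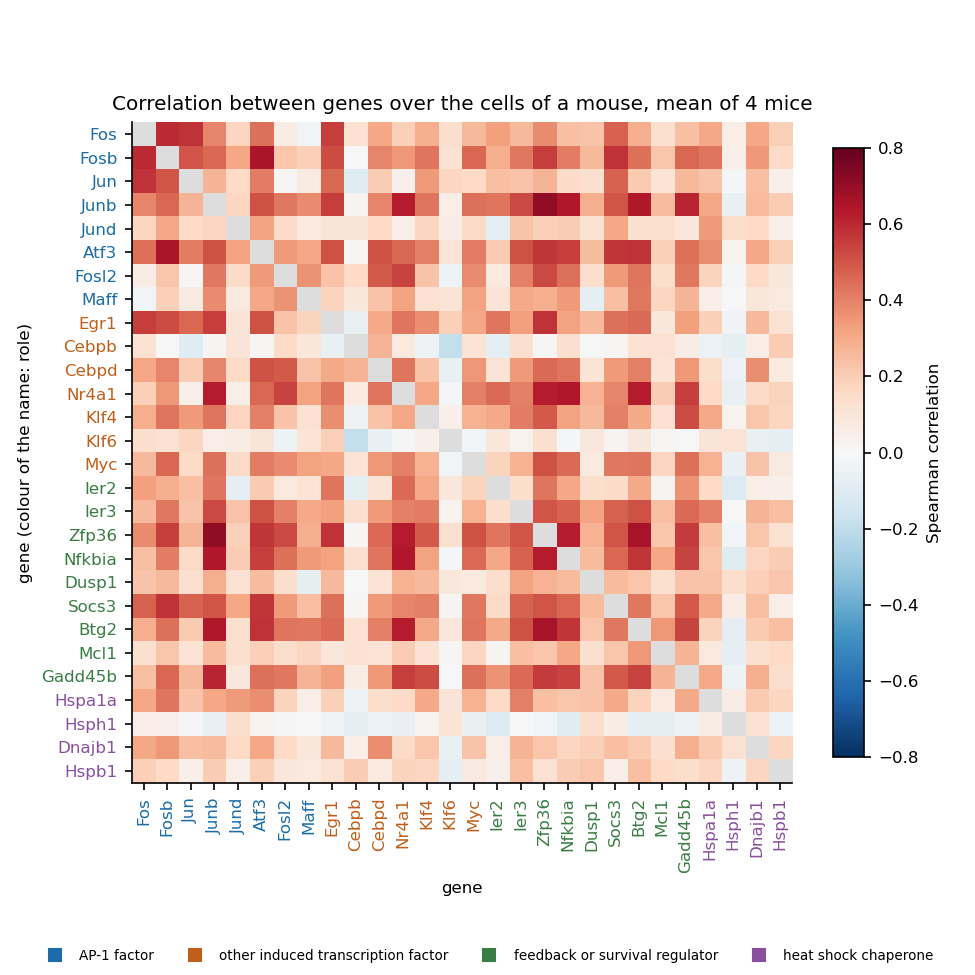
Mean over mice of the within-mouse Spearman correlation between members, over the 28 members detected well enough in every mouse, ordered by role, with red for positive and blue for negative values. AP-1, Egr1, Nr4a1 and feedback genes are mostly red, up to 0.71 for Junb with Zfp36, and Cebpb, Klf6 and Hsph1 are pale or blue.

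The matrix of correlations between members shows the AP-1, feedback and other induced factors in red, and paler stripes for the chaperones, Cebpb and Klf6. Little of the variation lay between mice. Over the 31 members detected often enough, a median of 2.41% of the variance of log2(TPM + 1) across cells lay between mice, from 0.155% for Ier2 to 11% for Klf4, beside a median of 2.21% over 10075 genes. The members thus varied from cell to cell inside a mouse and much less from mouse to mouse, as other genes did.

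Genes outside the list that followed the score most closely were ranked among 4942 genes detected in at least 20% of the cells of every mouse, whose median correlation with the score was -0.00. Nfkbiz, an NF-kB cofactor, had a mean over the 4 mice of 0.70, and Csrnp1, a nuclear protein, 0.67. They were followed by Sbno2 at 0.58, the metallothionein Mt1 and the phosphatase subunit Ppp1r10 at 0.57, and the matrix protein Cyr61 at 0.55. The list ended with Thbs1 and Ifrd1 at 0.54, Ppp1r15a, which restores translation after stress, at 0.53, and the cell cycle inhibitor Cdkn1a at 0.52. Of these 10 genes, 5 belong to a separate list of 36 stress-induced genes, of which 29 were among the 4942. The list was chosen with earlier results of these data known, so nothing is concluded from this overlap.

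That separate list holds stress-induced genes outside the 32 and, as said, was chosen with earlier results known. Its values are given beside those of the members without a test of their likeness. Between the lines its median log2 fold change was 0.59, with 29 of 36 genes above 0, and among Acta2-lower cells it was 0.06, with 20 above 0, or 0.48 on the mean over cells of log2(TPM + 1). Between the lines over all kept cells edgeR called 0 of them (0% of all genes), with 6 at an unadjusted p under 0.05 (9.31%), while DESeq2 called 3 (4.03%) and limma on mean log2(TPM + 1) called 7 (4.54%). Mt1 stood at 700 and 865 CPM in Lgr5 mice 1 and 2, against 242 and 174.1 in Lgr6 mice 1 and 2, and Mt2 had 159.99 and 270 against 43.4 and 37.1. Both metallothioneins, which bind metals and are induced by stress hormones, lay above in both Lgr5 mice, at 1.91 (SE 0.41, adjusted p = 0.327) and 2.42 (SE 0.56, adjusted p = 0.327), and are named after their values were seen. Between the Acta2 classes the median was -1.23, with 31 of 36 below 0, 0 called by edgeR (0.0296% of all genes), 11 at an unadjusted p under 0.05 (7.68%), and 10 called by DESeq2 (6.82%) and 10 by limma (5.10%). Nfkbiz had 77.2 against 727 CPM in mouse 1 and 43.6 against 422 in mouse 2, lower in the Acta2-high cells of both by -3.26 (SE 0.45, adjusted p = 0.253). Cyr61 was an exception, at 1053 against 181.3 CPM in mouse 1 and 858 against 600 in mouse 2. It was higher in the Acta2-high cells of both mice, at 1.53 (SE 0.60, adjusted p = 0.661 by edgeR).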

How the data were processed

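The authors pseudo-aligned reads to the mm10 transcriptome with kallisto 0.43.0 after bcl2fastq 2.17.1.14, both versions from the submitters' processing notes, and deposited counts per gene for all 384 wells. The authors also deposited log2 values, as log2(TPM + 1), and a normalized score, whole counts scaled to a common depth, which serves here only as an alternative. Their annotation release was not stated. The members, lists and tests were chosen with earlier results of these data known.

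Counts were added up over the kept cells of each mouse, or of each Acta2 class in mice with at least 3 cells in each class, and fitted with edgeR 4.0.16 (TMM, filterByExpr, glmQLFit, glmQLFTest) in R 4.3.3, with Benjamini-Hochberg adjustment over all genes tested. Standard errors were derived from the quasi-likelihood F statistic. CPM is relative to the TMM-scaled total, except for marker lists, where it is relative to the counts other than Rn45s. Fold changes were printed by rule for members past the threshold, or of at least 1 in size with mice that do not overlap or move one way; those of other members, and the other stress genes named, were chosen after their values were seen. Pairs, likeness and scores used log2(TPM + 1) under Python 3.11.15 (scipy 1.17.1, numpy 2.4.6, matplotlib 3.10.9, pandas 2.3.3). Shared 31-base words and gene positions come from GENCODE vM21 transcripts.

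Alternatives were DESeq2 1.42.0, limma 3.58.1 on mean log2(TPM + 1) and on log2 of mean TPM plus 1 or 0.1, no filter, library size, the mouse number as a block, all single-cell wells, Acta2-lower cells in both units, cells without Epcam or Sftpc, equal totals per cell, Acta2 thresholds of 10, also in the Lgr6 mice alone, and 12, other measures of correlation and of the score, and each mouse left out. Both count fits were checked on simulated counts with known changes, and no result given here rests on that check. Pools entered no comparison and removed wells only the fit with all single-cell wells, and bulk and organoid experiments of the study were not analysed here.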

Additional observations from a re-analysis of the deposited data

Results flagged for a closer look

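Wells that the authors removed, and pools, also carried counts of these genes, though not of every member in each set. All 32 members had more than 3 counts in the removed wells of the Lgr5 mice with at least 2000 genes. Only 10 did in those of Lgr5 mouse 1 with fewer genes, and 14 to 20 in the pools. As a share of counts other than Rn45s, the members took 2.02% in the removed wells of Lgr5 mouse 1 with at least 2000 genes, 1.86% in those with fewer and 3.47% in its pool. In Lgr5 mouse 2 these shares were 1.76%, 4.51% (13 wells with a median of 10 genes and 0 members detected) and 4.57%. In Lgr6 mouse 1 they were 1.28%, 1.74% and 2.02%, and in Lgr6 mouse 2 they were 1.42%, 0.679% and 0.826%. Removed wells with at least 2000 genes numbered 59 and 54 in the Lgr5 mice, against 4 and 6 in the Lgr6 mice. Kept cells had shares of 2.54%, 2.53%, 2.35% and 2.10%, each above that of these removed wells. The median score went the other way except in Lgr6 mouse 2. It was 6.58, 6.10, 4.67 and 3.56 in these removed wells, beside 5.45, 5.24, 3.41 and 4.22 in kept cells. Each mouse had 1 pool. The removed wells entered only the alternative fit with all single-cell wells, the pools none, and no test was made on these wells alone.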

How the results depend on the processing

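With 2 mice a line, an exact permutation over mice could not have reached the threshold, and the deepest mouse had over 10 times the counts of the shallowest. Of 540 alternative values of the members picked by the rule for fold changes, 508 kept their sign and side of the threshold, 22 came to pass it and 10 reversed. Other members are not in that count, and several of them reversed too. The cause was not tested for any of the shifts below.

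Between the lines, the share of tested genes past the threshold went from 0% to 4.03% with DESeq2, 0.738% with all single-cell wells, 0.329% with equal totals per cell, 0.114%, 0.270% and 4.54% with limma on mean TPM plus 0.1, plus 1 and on mean log2(TPM + 1), 2.07% with no filter, 0.217% and 0.0457% without Lgr6 mouse 1 or 2 and 0% without either Lgr5 mouse, the lone mouse of a line being assumed to vary like the others. Members past it went from 0 to 7 with limma on mean log2(TPM + 1) and 2 with no filter (Fosb and Klf4). Members whose mice do not overlap went from 24 to 14 among Acta2-lower cells. The median member fold change of 0.62 (all genes -0.05) became 0.74 with DESeq2 (all genes 0.07), 0.34 with all wells (0.18), 0.29 with either limma fit of mean TPM (-0.35 and -0.29), 0.94 with limma on mean log2(TPM + 1) (0.08) and 0.78 without Epcam or Sftpc cells (-0.13). It was 0.63 and 0.56 without Lgr5 mouse 1 or 2 (-0.36 and -0.27), and 0.76 and 0.54 without Lgr6 mouse 1 or 2 (0.15 and 0.29). Among Acta2-lower cells it reversed to -0.02 in summed counts, but was 0.61 with limma on mean log2(TPM + 1) of the same cells, which took the share past the threshold to 2.02% and members past it to 1, Hspb1. Pairing mice by number as a block gave 0.53 (-0.17) and 0 genes past the threshold; the numbers are only labels.

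Between Acta2 classes, that share went from 0.0296% to 0.124% at an Acta2 threshold of 10 and 0.0820% there in the Lgr6 mice alone, 0% at 12, 6.82% with DESeq2, 0.757% with equal totals, 0.0813%, 0.310% and 5.10% with the limma fits in the order above, 0% with no block, 0% without Epcam or Sftpc cells and 0.0520% without Rn45s. Members past it went from 0 to 2 with DESeq2 and 13 with limma on mean log2(TPM + 1). Members moving one way in every mouse went from 27 to 3 at a threshold of 10, which adds the Lgr5 mice with 3 and 4 Acta2-high cells, so that 16.2% of all genes move one way over 4 mice, beside 55.2% over 2. In the Lgr6 mice alone it was 19 at that threshold, beside 54.1%. The median of -1.28 became -0.46 at 10 with the Lgr5 mice, beside -0.71 for all genes, -0.33 at 10 in the Lgr6 mice alone, beside 0.14, -0.88 with equal totals and -0.78 with either limma fit of mean TPM. At 10 with the Lgr5 mice the picked members Egr2 (0.10), Atf3 (0.33), Hspa1b (-0.21), Nr4a1 (0.08) and Fosl2 (0.23) reversed, and so did Hspa1a, Klf6 and Mcl1. In the Lgr6 mice alone Fosb (0.03), Atf3 (0.25), Socs3 (0.10), Cebpd (0.21) and Fosl2 (0.21) reversed, and so did Hspa1a. With 1 Lgr6 mouse left, values without a test gave medians of -1.40 to -1.01.

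The median correlation became 0.260, 0.419 and 0.298 in Lgr5 mouse 2 and Lgr6 mice 1 and 2 with members detected in at least 30% of cells, 0.105 in Lgr5 mouse 2 without Epcam or Sftpc cells, and 0.339 and 0.163 in the Lgr6 mice among Acta2-high cells. The median score on scaled counts was 3.58, 3.64, 2.20 and 2.82. Leaving out Rn45s, using Acta2-high cells, limma on Acta2-lower cells and a threshold of 10 in the Lgr6 mice alone were chosen after seeing the data. At the threshold of 11 no Lgr5 mouse had enough cells to enter.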
